A study of Mus musculus with 14 samples.

Results

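The 5 genes described here are the adult haemoglobin genes Hba-a1, Hba-a2, Hbb-bs and Hbb-bt and the haem synthesis gene Alas2, found by their symbols among the 46095 gene symbols of a count table from mouse artery. They were selected on their counts in these 14 libraries, as genes whose RNA is carried by red blood cells, so their levels and fold changes are given as a description without a test. RNA of the superior mesenteric artery, a vessel that feeds the gut, was sequenced from 14 C57BL/6 mice that were 8 weeks old. The Normal WT group held 3 mice labelled Drp1 +/+ and the Normal KO group 4 mice labelled Drp1 flox/+, both without ischemia. The Ischemia WT group held 3 Drp1 +/+ mice and the Ischemia KO group 4 Drp1 flox/+ mice, both given ischemia, which in this study was made by drawing blood from the femoral artery. KO is the study's name for the mice with 1 altered copy of Drp1 (gene symbol Dnm1l), a GTPase that divides mitochondria. The labels do not say whether the flox allele had been deleted, and the study's methods describe the altered allele as a frameshift made with CRISPR/Cas9. The labels of the ischemic libraries carry the mark 2h, whereas the study's text gives a longer ischemic period for mice. The procedure was done under sodium pentobarbital, and whether mice without ischemia received it is not stated in the sources used here.

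Adult haemoglobin is a tetramer of alpha-globin and beta-globin chains, each holding a haem group that binds oxygen. The alpha chains are made from a pair of nearly identical genes, Hba-a1 and Hba-a2, and the adult beta chains of C57BL/6 mice from Hbb-bs and Hbb-bt. Alas2 makes the erythroid form of 5-aminolevulinate synthase, the first enzyme of haem synthesis, whereas other cells use Alas1. Erythroid precursors transcribe these genes in the bone marrow and spleen, and circulating reticulocytes and red cells still hold part of this RNA, so a vessel sampled with blood in it carries it too.

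By RefSeq on GRCm38.p6, the build that the submitters' processing notes name as mm10, Hba-a1 lies at chr11:32283672-32284486 and Hba-a2 at chr11:32296492-32297310. Hbb-bs lies at chr7:103826523-103827928, Hbb-bt at chr7:103812524-103813923 and Alas2 at chrX:150547417-150570622. The 250 bases before the annotated start of 4 genes are shown from RefSeq, each 5′ to 3′ on the strand of its gene. Their part in the levels measured in the artery was not tested. Capitals mark every match, on either strand, to 4 short motifs. The first is the box named for its letters CCAAT, found in many promoters. The second, CACCC, is a motif that the erythroid factor Klf1 can bind. The third, GATAA, is a motif that GATA factors can bind, and the last is a TATA-like motif with the letters ATATAA.
Hba-a1, chr11:32283422-32283671, plus strand: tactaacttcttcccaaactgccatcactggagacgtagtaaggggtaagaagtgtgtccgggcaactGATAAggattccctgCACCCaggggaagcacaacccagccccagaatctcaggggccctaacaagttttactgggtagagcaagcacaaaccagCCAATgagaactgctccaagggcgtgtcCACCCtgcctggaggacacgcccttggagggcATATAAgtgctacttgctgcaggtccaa
Hbb-bs, chr7:103827929-103828178, minus strand: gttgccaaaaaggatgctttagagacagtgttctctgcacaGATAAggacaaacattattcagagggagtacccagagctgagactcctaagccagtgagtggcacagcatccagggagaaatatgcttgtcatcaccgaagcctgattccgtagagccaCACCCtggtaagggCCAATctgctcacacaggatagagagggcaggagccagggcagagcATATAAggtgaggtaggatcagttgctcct
Hbb-bt, chr7:103813924-103814173, minus strand: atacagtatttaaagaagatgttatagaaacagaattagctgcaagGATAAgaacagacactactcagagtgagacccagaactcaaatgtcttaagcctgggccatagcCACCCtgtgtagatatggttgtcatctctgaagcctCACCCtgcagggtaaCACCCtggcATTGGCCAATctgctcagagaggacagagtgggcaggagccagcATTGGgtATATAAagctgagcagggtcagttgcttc
Alas2, chrX:150547167-150547416, plus strand: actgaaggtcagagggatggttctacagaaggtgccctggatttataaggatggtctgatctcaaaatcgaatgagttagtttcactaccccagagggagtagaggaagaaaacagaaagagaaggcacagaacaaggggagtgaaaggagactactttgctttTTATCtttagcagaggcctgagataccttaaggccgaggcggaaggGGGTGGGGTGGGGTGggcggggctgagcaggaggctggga
The window of Hba-a2 is not shown because 247 of its bases, shifted by 3 bases, are the same as those of Hba-a1. The windows of Hbb-bs and Hbb-bt shared 51.0% of 249 aligned bases, and the longest run that both share was 14 bases.

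The 4 haemoglobin windows each held all 4 motifs, which 0.466% of the 32851 promoter windows of the RefSeq table also did. The motifs include ones that erythroid factors can bind, so this share is a background and not a test. The windows of Hba-a1 and Hba-a2 also share 247 bases and are not separate cases. Counting the base just before the annotated start as 1, the end of the TATA-like motif nearest the start lay at base 23 in Hba-a1, 26 in Hba-a2, 25 in Hbb-bs and 24 in Hbb-bt. On the gene's strand the CCAAT box lay farther upstream, its end nearest the start at base 84 in Hba-a1, 72 in Hbb-bs and 71 in Hbb-bt. Alas2 held the GATA motif once and the CACCC motif 3 times, all on the opposite strand, and neither the CCAAT box nor the TATA-like motif in this window. Each motif alone was common, with the CACCC motif in 52.0%, the CCAAT box in 33.8%, the GATA motif in 22.6% and the TATA-like motif in 9.10% of all windows. These matches describe letters and not sites of binding. No match overlapped a match to another motif. In Hbb-bt a CCAAT box on the opposite strand directly adjoined one on the gene's strand.

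Values per mouse are in CPM, the count scaled to a common library size after TMM normalisation. The libraries held 25612646 to 40255851 counts, and 3 counts, taken as the smallest level that the depth can show, equal 0.0678 to 0.113 CPM. All 5 genes passed the filter on low counts with 17693 genes in all. Normal WT mouse 3 was sequenced on another lane than the other 13 mice, and a lane with 1 library gives no comparison within it. Another library stood apart, since Ischemia WT mouse 1 held 132 counts of the 4 haemoglobin genes whereas the other 13 mice held 2382 to 25397, and results that rest on it are also given without it. Transcripts of Dnm1l were at 54.8 to 62.2 CPM in Normal KO mice and 63.8 to 90.9 CPM in Normal WT mice, and at 60.0 to 76.0 and 63.1 to 81.0 CPM after ischemia. Smooth muscle genes marked the tissue as artery, with mean levels of 11087 CPM for Acta2, 7599 for Myh11 and 1284 for Cnn1, whereas Tagln was at only 0.675 to 5.78 CPM. All 6 listed smooth muscle genes were detected in every mouse.

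Taken over the 4 genes, haemoglobin RNA was 332 to 574 CPM in Normal KO mice, 103 to 243 CPM in Normal WT mice, 73.2 to 182 CPM in Ischemia KO mice and 4.01 to 104 CPM in Ischemia WT mice. It made up 0.0631% of all counts in the highest mouse and 0.000422% in the lowest. The group means were 438 ± 101 CPM (SD, n = 4) in Normal KO, 177 ± 70.8 (n = 3) in Normal WT, 120.3 ± 52.2 (n = 4) in Ischemia KO and 60.8 ± 51.5 (n = 3) in Ischemia WT. Normal KO mice all lay above the mice of the other groups, whereas each of the other groups overlapped its neighbour in this order. In whole-tissue RNA, fewer red cells and less haemoglobin RNA per cell cannot be told apart.

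Hba-a1 encodes the first of the adult alpha-globin copies. It was at 72.9, 65.1 and 38.6 CPM in Normal WT mice and at 155, 157, 199.9 and 123 CPM in Normal KO mice. After ischemia it was at 1.40, 40.6 and 29.9 CPM in WT mice and at 67.6, 25.8, 49.1 and 29.2 CPM in KO mice. The lowest Normal KO mouse lay above the highest mouse of every other group, and the ischemic groups overlapped each other.

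Hba-a2 is the second alpha-globin copy, and its protein differs little if at all from that of Hba-a1. It was at 33.2, 20.4 and 10.5 CPM in Normal WT mice and at 43.9, 41.5, 48.2 and 29.5 CPM in Normal KO mice. After ischemia it was at 0.486, 9.49 and 4.39 CPM in WT mice and at 18.1, 6.60, 15.4 and 7.42 CPM in KO mice. Here Normal WT mouse 1 lay above Normal KO mouse 4, so the normal groups overlapped, while every ischemic WT mouse lay below every normal WT mouse.

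Hbb-bs encodes an adult beta chain and had the highest counts of the 5 genes. It was at 114, 80.0 and 45.3 CPM in Normal WT mice and at 178, 190.4, 263 and 146 CPM in Normal KO mice. After ischemia it was at 1.98, 44.9 and 32.4 CPM in WT mice and at 79.1, 34.0, 64.4 and 36.8 CPM in KO mice. The ranges of Normal WT and Ischemia WT mice were separated by the narrow step from 44.9 to 45.3 CPM.

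Hbb-bt is the neighbouring beta-globin gene on chromosome 7. It was at 23.3, 20.6 and 8.15 CPM in Normal WT mice and at 36.7, 43.3, 63.0 and 33.1 CPM in Normal KO mice. After ischemia it was at 0.152, 9.46 and 7.32 CPM in WT mice and at 17.2, 6.76, 16.1 and 7.57 CPM in KO mice. The 0.152 CPM of Ischemia WT mouse 1 rested on 5 counts, close to the smallest level that the depth can show, and Normal WT mouse 3 lay below Ischemia WT mouse 2.

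Alas2 was the lowest of the 5 genes in counts in 13 of 14 mice. It was at 7.67, 5.11 and 4.11 CPM in Normal WT mice and at 14.5, 13.4, 18.4 and 14.1 CPM in Normal KO mice. After ischemia it was at 0.608, 4.29 and 1.80 CPM in WT mice and at 4.25, 2.70, 6.34 and 2.43 CPM in KO mice. The 4 Normal KO mice lay closest together, with an SD of 14.8% of their mean, whereas the SD of the Ischemia WT mice was 84.2% of theirs.

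**Figure D1:**
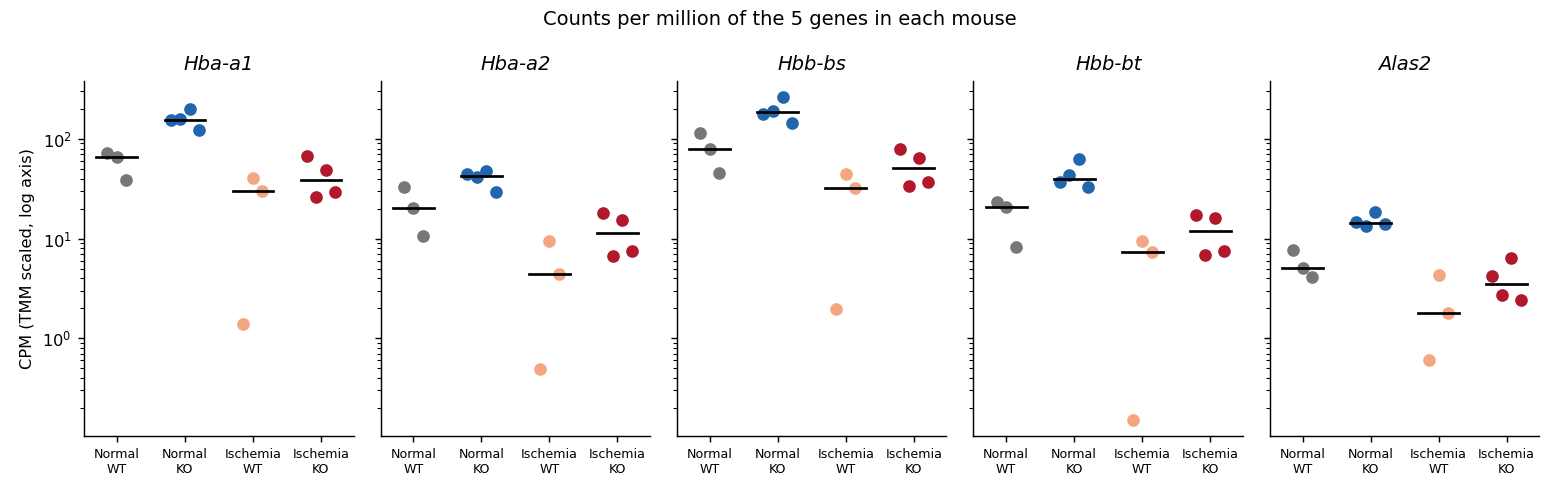
CPM after TMM scaling on a log axis for the 5 genes, with 1 point for each of the 14 mice and a bar at the median of each group. Normal KO mice lie above all other mice for each gene but Hba-a2, where 1 Normal WT mouse at 33.2 CPM lies above 1 of them at 29.5 CPM, and 1 Ischemia WT mouse lies far below the other 13 mice, at 1.40 CPM for Hba-a1 and 0.152 CPM for Hbb-bt.

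Each of the 5 genes had the same order of group means and medians, from Normal KO through Normal WT and Ischemia KO to Ischemia WT. Neighbours in this order did not all differ beyond their spread, since the ranges of Normal WT and Ischemia KO overlapped for all 5 genes, as did those of Ischemia KO and Ischemia WT. From the lowest to the highest mouse, Hba-a1 spanned 143-fold, Hbb-bs 133-fold, Hba-a2 99-fold and Alas2 30.2-fold. Without Ischemia WT mouse 1 these spans were 7.74-fold for Hba-a1, 8.11-fold for Hbb-bs, 11-fold for Hba-a2, 9.32-fold for Hbb-bt and 10.2-fold for Alas2. Hbb-bt, which had 5 counts in that mouse, spanned 414-fold with it.

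Levels can be compared between genes once divided by transcript length, taken as the longest GENCODE M21 transcript (554 bases for Hba-a2 to 2037 for Alas2). Over the 14 mice the median level was 114 CPM per kb for Hbb-bs, 81.7 for Hba-a1, 30.2 for Hba-a2, 23.7 for Hbb-bt and 2.31 for Alas2. Hbb-bs lay above Hba-a1 and Hba-a1 above Hba-a2 in 14 of 14 mice, Hba-a2 above Hbb-bt in 12, and Hbb-bt above Alas2 in 13. The 2 copies of each chain share long stretches of sequence, and how the counting divided reads between them is not stated, so the split between copies is uncertain and the sums over copies are firmer.

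The balance of alpha and beta chains varied little beside the levels. Alpha-globin copies made up 43.2% to 48.0% of the counts of the 4 haemoglobin genes over all 14 mice, a range that includes the mouse with 132 counts, at 47.0% (95% Wilson interval 38.7% to 55.4%). The group means of this share were 45.8% ± 2.14 (SD, n = 3) in Normal WT, 45.8% ± 1.96 (n = 4) in Normal KO, 47.1% ± 0.819 (n = 3) in Ischemia WT and 45.3% ± 1.26 (n = 4) in Ischemia KO. All 4 groups overlapped. Intervals cover counting error only, since PCR copies of 1 molecule cannot be told from separate molecules.

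Within the chains, Hbb-bt made up 15.3% to 20.5% of beta-globin counts in the 13 mice other than Ischemia WT mouse 1, where it was 7.14% (95% Wilson interval 3.09% to 15.7%, 5 of 70 counts). Hba-a2 made up 12.8% to 31.3% of alpha-globin counts. Its share was highest in Normal WT mouse 1, at 31.3% (29.8% to 32.8%), and lowest in Ischemia WT mouse 3, at 12.8% (11.1% to 14.8%), and these intervals did not touch. The KO groups held together more closely, at 20.5% ± 1.34 (SD, n = 4) without ischemia and 21.4% ± 1.72 (n = 4) after it, whereas the WT groups had SDs of 5.2 and 6.5 percentage points (n = 3 each). The 6.5 of Ischemia WT includes mouse 1, at 25.8% (95% Wilson interval 16.6% to 37.9%, 16 of 62 counts). Ischemia WT mice 2 and 3 were at 19.0% and 12.8%.

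Relative to haemoglobin RNA, Alas2 varied less in most mice than the levels did. Alas2 held 2.28% to 4.19% of the counts of the 5 genes in 13 mice. The lowest of these was Ischemia KO mouse 1 (95% Wilson interval 1.94% to 2.68%) and the highest Ischemia KO mouse 3 (3.68% to 4.77%), and these intervals did not touch. In Ischemia WT mouse 1 it held 13.2% (95% Wilson interval 8.68% to 19.5%, 20 of 152 counts), above the interval of every other mouse. Across the 14 mice the log2 CPM of Alas2 followed that of summed haemoglobin with r of 0.946 (Pearson) and rho of 0.952 (Spearman), and with r of 0.962 over the 13 mice without Ischemia WT mouse 1 and 0.952 over the 12 without the 2 mice farthest from the median. These correlations describe points that share their libraries and group structure and carry no test.

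**Figure D2:**
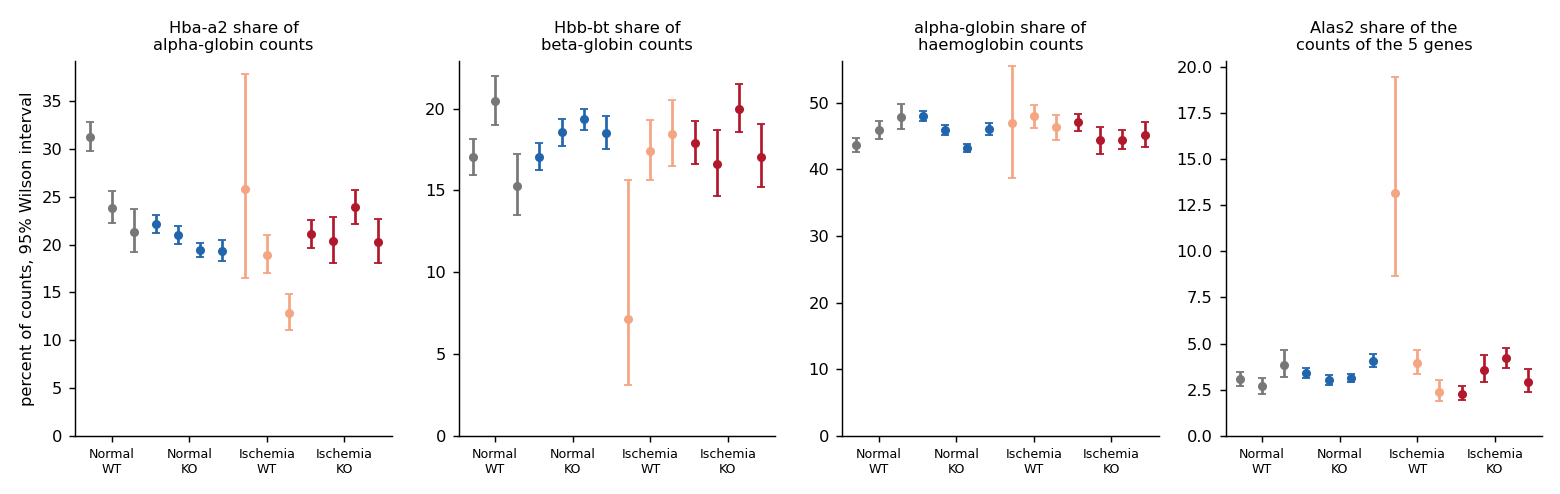
Shares of counts in percent for each of the 14 mice with 95% Wilson intervals, for a gene within its chain, alpha-globin within haemoglobin, and Alas2 within the 5 genes. The alpha-globin share stays between 43.2% and 48.0%, whereas the Alas2 share of Ischemia WT mouse 1, at 13.2%, lies apart from the other 13 mice.

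**Figure D3:**
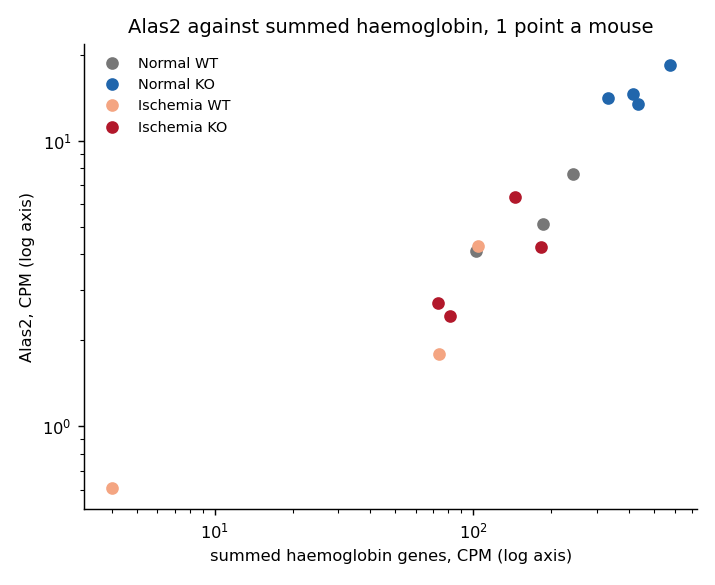
Alas2 CPM against the summed CPM of the 4 haemoglobin genes, both on log axes, with 1 point a mouse. The 4 Normal KO mice lie at the upper end, from 332 CPM of haemoglobin upwards, and 1 Ischemia WT mouse lies alone at 4.01 CPM.

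The comparison of KO with WT mice without ischemia asks how the altered Drp1 allele goes with artery RNA in resting mice. The fitted log2 fold change (edgeR, ± SE) was 1.43 ± 0.70 for Hba-a1, 0.93 ± 0.66 for Hba-a2, 1.29 ± 0.68 for Hbb-bs, 1.34 ± 0.78 for Hbb-bt and 1.42 ± 0.52 for Alas2. The ratio of group means was 2.69 for Hba-a1, 2.44 for Hbb-bs, 2.54 for Hbb-bt, 2.68 for Alas2 and 1.91 for Hba-a2. In 4 of the 5 genes, all but Hba-a2, every KO mouse lay above every WT mouse, against 2.59% of the 17693 genes tested. That share is a background and not a test, because the genes were chosen with these levels known. Across all genes tested, the share that passed a false discovery rate (FDR) of 0.05 with a fold change over 1.5 was 0% by edgeR, while 929 genes had an unadjusted p under 0.05 and DESeq2 called 41.

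With ischemia, the KO mice were higher than the WT mice on average but not mouse by mouse. Log2 fold changes were 0.84 ± 0.69 for Hba-a1, 1.31 ± 0.68 for Hba-a2, 1.02 ± 0.68 for Hbb-bs, 1.08 ± 0.78 for Hbb-bt and 0.82 ± 0.52 for Alas2. In 0 of 5 genes were the groups separate, against 4.74% of genes separate with KO higher. The difference leaned on Ischemia WT mouse 1. Without it the log2 fold changes were 0.29 for Hba-a1, 0.78 for Hba-a2, 0.47 for Hbb-bs, 0.51 for Hbb-bt and 0.37 for Alas2, and the ratio of mean haemoglobin went from 1.98 to 1.35.

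Ischemia against normal conditions was compared within each genotype. In KO mice the log2 fold changes lay close together, at -1.89 ± 0.65 for Hba-a1, -1.78 ± 0.62 for Hba-a2, -1.86 ± 0.63 for Hbb-bs, -1.89 ± 0.72 for Hbb-bt and -1.94 ± 0.48 for Alas2. In 5 of 5 genes every ischemic KO mouse lay below every normal KO mouse, against 5.6% of the genes tested. Mean haemoglobin was 3.64-fold higher without ischemia in this genotype. The share of all genes that passed the FDR and fold limits was 0.294% in this comparison.

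In WT mice, where 0.0113% of all genes passed these limits, the same comparison gave -1.30 ± 0.74 for Hba-a1, -2.16 ± 0.73 for Hba-a2, -1.59 ± 0.72 for Hbb-bs, -1.62 ± 0.83 for Hbb-bt and -1.34 ± 0.55 for Alas2. The groups were separate in 2 of 5 genes, Hba-a2 and Hbb-bs, against 4.42% of the genes tested. Between WT mice of the same number, each of the 5 genes was lower after ischemia in 3 of 3 pairs. The labels name no pairs, and this count depends on matching by number. Normal WT mouse 3 lay below Ischemia WT mouse 2 for Hba-a1 (38.6 against 40.6 CPM), Hbb-bt (8.15 against 9.46) and Alas2 (4.11 against 4.29). With the replicate number as a block in a fit of the WT groups only, the log2 fold changes were -1.86 ± 1.18 for Hba-a1, -2.46 ± 1.11 for Hba-a2, -2.0 ± 1.19 for Hbb-bs, -2.08 ± 1.40 for Hbb-bt and -1.64 ± 0.80 for Alas2. Over all genes this block called 1, and the block over the 4 groups 0, where the fit without a block called 2. Mean haemoglobin was 2.92-fold higher without ischemia, and 1.99-fold without Ischemia WT mouse 1. Leaving that mouse out gave log2 fold changes of -0.74 for Hba-a1, -1.62 for Hba-a2, -1.04 for Hbb-bs, -1.05 for Hbb-bt and -0.89 for Alas2, so the direction held in each gene. Both genotypes averaged, the log2 fold change was -1.59 ± 0.49 for Hba-a1, -1.97 ± 0.48 for Hba-a2, -1.73 ± 0.48 for Hbb-bs, -1.75 ± 0.55 for Hbb-bt and -1.64 ± 0.37 for Alas2, and 0 of 5 genes had all ischemic mice below all normal mice, against 0.271% of genes.

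The ischemic differences of the genotypes were themselves compared. The KO difference minus the WT difference was -0.59 ± 0.96 for Hba-a1, 0.38 ± 0.92 for Hba-a2, -0.27 ± 0.93 for Hbb-bs, -0.26 ± 1.07 for Hbb-bt and -0.60 ± 0.71 for Alas2. Each value was smaller than its standard error. Without Ischemia WT mouse 1 the values were -1.15 for Hba-a1, -0.16 for Hba-a2, -0.82 for Hbb-bs, -0.84 for Hbb-bt and -1.05 for Alas2, so the sign of Hba-a2 turned. All comparisons share groups, so agreement between them is not independent.

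**Figure D4:**
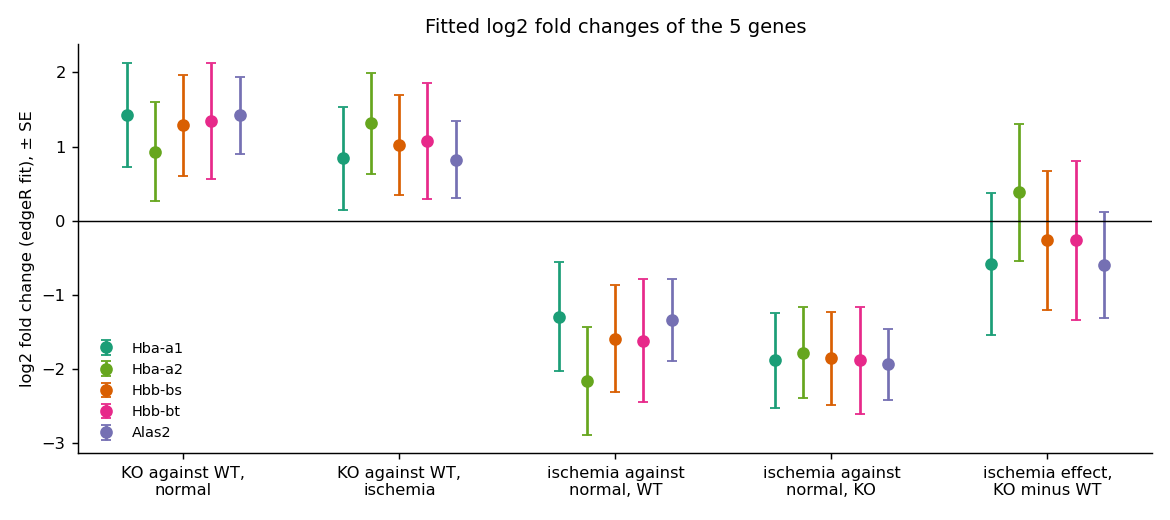
Fitted log2 fold changes of the 5 genes with standard errors from edgeR, for 4 comparisons and for the KO minus WT difference of the ischemic effect. Values are above 0 for KO against WT and below 0 for ischemia against normal, such as 1.42 and -1.94 for Alas2, and the last set lies within its standard errors of 0.

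The other globin genes differed widely from the 5. The globin symbols Hba-x, Hbb-y, Hbb-bh0, Hbb-bh1, Hbb-bh2 and Hbb-bh3 had 0 counts in all 14 mice, which allows up to 0.113 CPM in the library with the highest such limit. The theta-globin genes Hbq1a and Hbq1b had 2 and 14 counts over all mice, and Hbb-b2 had 1. Hbb-b1, a beta-globin symbol whose reads may be shared with the neighbouring copies, was the only haemoglobin symbol beside the 5 genes that had enough counts to be tested, at 0 to 3.50 CPM. Its mean was 2.72 CPM in Normal KO, 1.13 in Normal WT, 0.737 in Ischemia KO and 0.205 in Ischemia WT, the same order as the 5 genes. Myoglobin (Mb), the oxygen store of muscle, was at 0.0552 to 1217 CPM and Cygb, a globin of connective tissue cells, at 44.2 to 533 CPM, and neither followed the order of the 5 genes. Ngb, the globin of nerve cells, had 169 counts in all. In edgeR's quasi-likelihood test 0 of 4 tested globins outside the 5 passed in any comparison, where at most 0.927% of all genes did. The smallest adjusted p was 0.0988 (edgeR) for Hbb-b1 with ischemia in both genotypes, where 1 had an unadjusted p under 0.05 and DESeq2 called 1. Over all 17693 genes tested these counts were 3196 and 870.

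Genes that define red cells and their precursors were at or near 0 while the 5 genes were abundant. The 5 genes held 107985 counts over the 14 libraries, whereas 10 red cell genes, picked with their values known, held 278. Slc4a1 (the band 3 anion exchanger) reached 0.708 CPM and Epb42, a protein of the red cell membrane skeleton, reached 0.959 CPM. Rhag had 2 counts in all, and Kel and Hemgn had 1 each. Trim10 and Cldn13 had 0. Among the transcription factors, Klf1, Gata1 and Gfi1b, which drive erythroid genes in precursors, held 23, 22 and 46 counts in all.

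Over the erythroid lists (other globins, haem synthesis, red cell membrane, late erythroid cytoplasm and erythroid transcription factors), 54 genes were tested beside the 5, and 0 passed in any of the 6 comparisons by edgeR (quasi-likelihood, p adjusted after Benjamini and Hochberg). Of all genes, 0% passed for KO against WT in either condition and for the difference between genotypes. The share was 0.0113% for ischemia in WT, 0.294% in KO and 0.927% in both genotypes. With so few passing, 0 of 54 says little about the erythroid genes. At an unadjusted p under 0.05, 3 were higher and 3 lower in KO mice without ischemia, and 4 higher and 14 lower with ischemia in both genotypes, and DESeq2 called 0 and 3. Of all 17693 genes tested, 568 were higher and 361 lower in the first comparison. In the second, 1477 were higher and 1719 lower, and DESeq2 called 41 and 870. The median log2 fold change of these 54 genes was 0.00 for KO against WT without ischemia and -0.29 with ischemia in both genotypes, beside -0.02 and -0.05 over all 17693 genes.

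The erythroid lists are led by genes that artery cells also express. In haem synthesis, 16 of 16 listed genes were tested and Slc25a39, Alas1 and Fech led at mean levels of 189.9, 119 and 77.0 CPM. Alas1, the enzyme form of other cells, was at 30.2 to 267 CPM, with group means of 152 CPM in Normal WT, 145 in Normal KO, 84.9 in Ischemia WT and 95.2 in Ischemia KO, so that without ischemia it was not higher in KO mice as Alas2 was. Of the red cell membrane list 13 of 18 were tested, led by the water channel Aqp1 (473 CPM), Epb41 (91.1 CPM) and Dmtn (47.1 CPM). Of the late erythroid cytoplasm list 17 of 20 were tested, led by Cat (366 CPM), Gpx1 (358 CPM) and Prdx2 (93.6 CPM), and of the transcription factors 6 of 10, led by Ldb1 (108 CPM), Lmo2 (25.4 CPM) and Zfpm1 (24.7 CPM). Of the genes that scavenge and break down haem 10 of 10 were tested, led by Lrp1 (1090.1 CPM), Hp (429 CPM) and Slc48a1 (184 CPM), and of the iron genes 12 of 12, led by Fth1 (2760.2 CPM), Ftl1 (434 CPM) and Aco1 (107 CPM). In these 2 lists 0 genes passed in any comparison, where at most 0.927% of all genes did. With ischemia in both genotypes, 2 and 6 were lower at an unadjusted p under 0.05, and DESeq2 called 0 and 2. Of all 17693 genes tested, 1719 were lower at that limit and DESeq2 called 870.

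**Figure D5:**
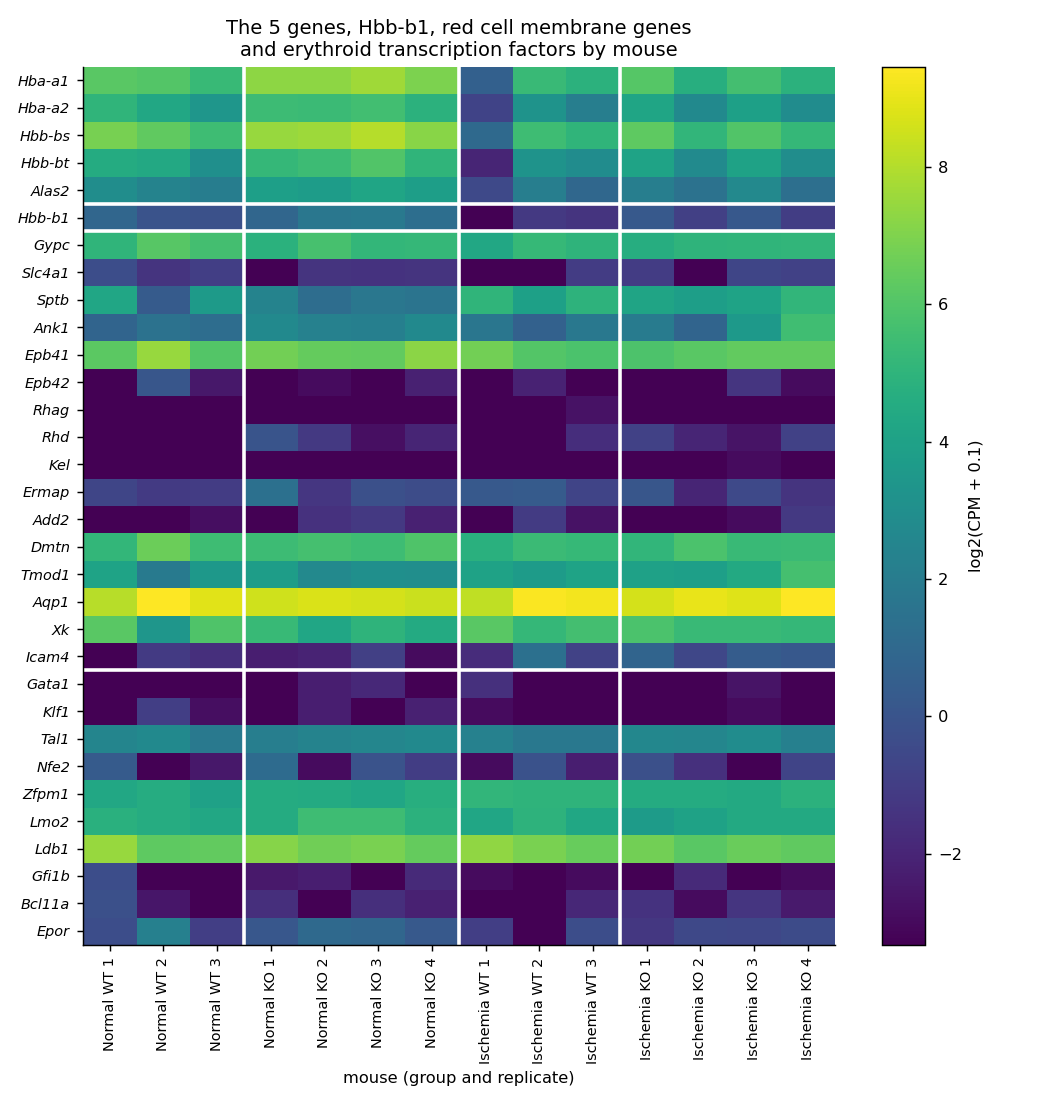
Levels as log2(CPM + 0.1) of the 5 genes, Hbb-b1, 16 red cell membrane genes and the 10 erythroid transcription factors in each of the 14 mice. The top rows carry the group order of the 5 genes, whereas Rhag, Kel, Klf1 and Gata1 are dark in most mice and Aqp1, Epb41 and Ldb1 are bright in all.

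Genes of other blood cells ranged from 0 to sums above that of haemoglobin in some mice. In Ischemia WT mice the platelet list summed to 197 to 231 CPM, beside 4.01 to 104 CPM of haemoglobin. Itgb3 alone was at 177 to 227 CPM in those mice. In Normal KO mice the platelet list summed to 48.5 to 163 CPM, below the 332 to 574 CPM of haemoglobin. The defining platelet genes Pf4 and Ppbp had 25 and 14 counts in all, and the neutrophil gene Ly6g, the B cell gene Ighm and the monocyte gene Fcnb had 0. In Ischemia WT mouse 2 the neutrophil list summed to 122 CPM beside 104 CPM of haemoglobin, and Lcn2 alone was at 96.1 CPM there. The T cell list (6 of 8 genes tested, led by Cd8a, Cd4 and Cd3e at 1.02, 1.0 and 0.947 CPM) summed to 1.12 to 32.2 CPM in Normal KO, 1.81 to 6.08 in Normal WT, 0.208 to 2.51 in Ischemia KO and 0.243 to 1.80 in Ischemia WT mice. The monocyte list (4 of 5 tested, led by Plac8, Ccr2 and Ly6c2 at 7.11, 2.54 and 1.95 CPM) summed to 10 to 65.1, 5.93 to 16.4, 1.57 to 8.83 and 1.44 to 7.62 CPM in the same order. The medians of both lists were highest in Normal KO mice, at 4.99 and 15.7 CPM, and lowest in Ischemia WT mice, at 0.470 and 2.19 CPM, an order of groups that the 5 genes also had. Their part in the levels of the 5 genes was not tested.

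Of the 30 genes of the blood cell lists that were tested, 2 passed in 1 comparison, ischemia against normal in both genotypes, where 0.927% of all genes did. Ccr2, a chemokine receptor of monocytes, fell from 1.69 to 13.7 CPM in normal mice to 0.0304 to 1.46 CPM in ischemic ones (log2 fold change -2.98 ± 0.63, adjusted p = 0.0444, edgeR). Cd3g, a chain of the T cell receptor complex, fell from 0.168 to 4.36 CPM to 0 to 0.399 CPM (adjusted p = 0.0322, edgeR), with 0 counts in all 3 Ischemia WT mice. Ccr2 passed in 3 and Cd3g in 4 of the 14 fits that each left out 1 mouse, with adjusted p up to 0.138 and 0.0938. The B cell list (3 of 7 tested, with Cd79a and Cd79b at 0.876 and 0.412 CPM), the neutrophil list (8 of 13, led by Lcn2, Mmp9 and S100a9 at 13.1, 2.93 and 1.63 CPM) and the platelet list (9 of 14, led by Itgb3, Itga2b and Tubb1 at 139, 5.82 and 2.32 CPM) had 0 genes past the limits in edgeR. With ischemia in both genotypes, 0, 2 and 2 of these genes had an unadjusted p under 0.05 and DESeq2 called 0, 2 and 0, in the order B cell, neutrophil and platelet. Over all 17693 genes tested these counts were 3196 and 870. Neutrophil genes summed to 15.9 to 54.0 CPM in Ischemia KO mice, above the 5.20 to 12.4 CPM of Normal KO mice. Lcn2, which other cells can also express, carried this step, at 7.74 to 27.4 against 0.678 to 4.77 CPM, and without it the sums overlapped, at 4.84 to 26.5 and 4.52 to 10.6 CPM. The whole list summed to 3.86 to 122 CPM in Ischemia WT and 4.25 to 13.4 CPM in Normal WT mice, which overlapped.

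Cells of the vessel and the fat around it were also uneven between mice. Smooth muscle genes summed to 7316 to 25507 CPM in Normal WT, 10703 to 25421 in Normal KO, 20341 to 37356 in Ischemia WT and 19104 to 31018 in Ischemia KO mice. All these ranges overlapped, and the medians of the ischemic groups, 28927 and 24826 CPM, lay above the 21602 and 15311 CPM of Normal WT and Normal KO. Endothelial genes (6 of 6 tested, led by Pecam1, Cdh5 and Vwf at 439, 236 and 151 CPM) summed to 639 to 1679 CPM with all groups overlapping. Brown adipocyte genes (4 of 4 tested, led by Ucp1, Cidea and Elovl3 at 1698, 725 and 64.5 CPM) summed to 139 to 6017 CPM in Normal WT, 1005 to 5803 in Normal KO, 245 to 1232 in Ischemia WT and 885 to 4472 in Ischemia KO mice. None of these 3 lists had a gene past the limits in edgeR, where at most 0.927% of all genes passed in any comparison, and DESeq2 called 0 as well. At an unadjusted p under 0.05, 1 smooth muscle gene was higher with ischemia in both genotypes, against 1477 of all 17693 genes tested. At that limit 2 brown adipocyte genes were higher in Ischemia KO than in Ischemia WT mice, against 510 of all genes. The part of tissue composition in the levels of the 5 genes was not tested.

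The 4 haemoglobin genes followed their own sum closely, as they must, with r of 0.986 to 1.0 over the 14 mice, and Alas2, which is not in the sum, with r of 0.943 on log2 CPM with a prior count of 2. With the group means removed, Alas2 kept an r of 0.890. Among 17688 other genes the median r was -0.0018 and the 99th percentile 0.709. Of the 10 genes most like the sum, Hbb-b1 came first (r of 0.964, and 0.952 without Ischemia WT mouse 1). Its reads may be shared with the beta-globin copies in the sum, so its place may be partly built in. The others named are Zfp87 (0.889), Ms4a6b (0.880), Mki67 (0.873), Kif4 (0.868), Tmem178b (0.864), Laptm5 (0.863), Ppm1h (0.862) and Tlr7 (0.861). The most opposite were Fem1c (-0.921), Eef1a1 (-0.879), Sh3bp4 (-0.878), Nrf1 (-0.870) and Ddb1 (-0.859). The list of the 10 most like genes leaned on 1 library, since without Ischemia WT mouse 1 only 1 of the 10 most like genes stayed among the first 10. These values carry no test.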

How the data were processed

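RNA of the superior mesenteric artery was sequenced from 14 mice in 4 groups. The authors deposited a table of counts, whole reads per gene symbol, and the submitters' processing notes name HISAT2 (2.0.4) and mm10. The counting program, annotation and use of strand are not given in the sources used here, so reads shared by near-identical globin copies or by overlapping genes may be split or lost. Groups came from the sample labels, and nothing was left out. The members and gene lists were chosen with earlier results of these data known.

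Counts were fitted with edgeR (4.0.16, R 4.3.3) after TMM scaling and its default filter by group, which left 17693 of 46095 symbols, 27727 of which had a count. One quasi-likelihood fit over the 4 groups gave 6 comparisons, and a gene passed at an FDR of 0.05 with a fold change over 1.5. The p-values measure the spread among these mice. The biological coefficient of variation was 0.522, and each of the 18 pairs of libraries within a group differed beyond sampling noise. Fold changes of the 5 genes are printed with standard errors and no p-value. The 5 genes are described in full, the 3 genes of highest mean level were named for each list, as were any that passed, as were the 10 genes most and 5 least like summed haemoglobin by Pearson r over log2 CPM (prior count 2), also with group means removed. The 10 defining red cell genes and other genes named at or near 0 were named after their values were seen. Alternatives were DESeq2 (1.42.0), no filter, at least 10 counts in every library, only the groups compared, a replicate block (also in the WT groups only) and leaving out each mouse. Deviations of same-numbered mice from their group means correlated at -0.146 to 0.316 over all groups. For the 3 pairs of Normal WT and Ischemia WT mice they correlated at 0.123, 0.192 and 0.120, each over 0.1, so only these were matched in a separate fit. This choice came from the data and not the labels. Mice of different numbers were not correlated as a baseline, so these values do not show that the mice were paired. Wilson intervals used a 95% level and transcript lengths came from GENCODE M21. Sequences came from RefSeq (GRCm38.p6), whose table held all 5 genes. A few genes that these rules pick are not reported here. Fits were tested on simulated data.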

Additional observations from a re-analysis of the deposited data

How the results depend on the processing

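The log2 ratio of summed haemoglobin, from geometric means, was 1.36 for KO against WT without ischemia (1.01 to 1.64 when each mouse was left out in turn) and 1.83 with ischemia (0.35 to 2.70). For ischemia against normal it was -2.41 in WT (-3.28 to -0.92), -1.94 in KO (-2.17 to -1.74) and -2.17 in both (-2.61 to -1.43), and the difference between genotypes was 0.47 (-1.02 to 1.33). The values 0.35, -0.92 and -1.02 are those without Ischemia WT mouse 1. Of 545 recomputed fold changes of the 5 genes outside the difference between genotypes, 545 kept their direction, and of 104 of that difference 96 did. These fits reuse the same 14 libraries, and some leave out a mouse that is not in the comparison. The genes were also chosen with their levels known, so these counts are a description and not independent support.

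Among the 54 erythroid list genes DESeq2 called 1 for KO against WT with ischemia, 4 for ischemia in KO and 3 for ischemia in both genotypes, where edgeR called 0. Fitting only the groups compared called 1 for ischemia in KO. For ischemia in both genotypes, no filter called 1 and the replicate block 1. Leaving out 1 mouse called 0 to 1 in both of these comparisons. Among the 30 genes of other blood cells DESeq2 called 1, 3, 4, 7 and 1 for KO against WT with ischemia, ischemia in WT, in KO, in both genotypes and the difference. For both genotypes, where edgeR called 2, no filter called 4, at least 10 counts in every library 0, the replicate block 1, and leaving out 1 mouse 0 to 2. Over all genes DESeq2 called 41, 18, 108, 606, 870 and 11 in the 6 comparisons, where edgeR called 0, 0, 2, 52, 164 and 0, and leaving out 1 mouse gave 0 to 29, 0, 0 to 3, 5 to 174, 60 to 361 and 0. Fitting only the groups compared called 0 for ischemia in WT and 267 in KO, and does not apply to the last 2 comparisons. The causes were not tested. By the labels, same-numbered mice share only a number, also in the WT groups. For ischemia in WT over all genes the replicate block called 0, and the block in the WT groups only, chosen after seeing the data, called 1. The stricter filter drops Hbb-bt. In Ischemia WT mouse 1 depth limits Hbb-bt (5 counts), Hba-a2 (16) and Alas2 (20).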

Other observations

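With the group means removed, the genes most like summed haemoglobin within the groups were Slc15a2 (r of 0.934), Hbb-b1 (0.928), Gnat1 (0.917), Gm36882 (0.895), Tdg (0.882), Mki67 (0.878), Tmsb10 (0.875), Kcna6 (0.874), Mid1 (0.871) and Gm41556 (0.860) over 14 mice, without a test. Hbb-b1, which may share reads with the beta-globin copies in the sum, and Mki67 also stood among the first 10 with the group means kept. Fem1c was the most opposite in both lists, at -0.921 and, with the group means removed, -0.948, followed there by Lrfn3 (-0.930), Zc3h8 (-0.893), Rai2 (-0.884) and Amotl2 (-0.879). The values with group means removed were not computed without Ischemia WT mouse 1. With group means kept and that mouse left out, r was 0.952 for Hbb-b1, 0.723 for Mki67 and -0.831 for Fem1c. The other most like genes then ran from -0.653 (Gnat1) to 0.278 (Kcna6). Lrfn3, Zc3h8, Rai2 and Amotl2 were then at 0.111, 0.467, 0.400 and 0.524. Gnat1, Gm36882 and Gm41556 had mean levels of only 0.202, 0.179 and 0.134 CPM.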
